A study of Mus musculus with 56 samples.

Results

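The genes described here are the machinery of cell division: 45 mouse genes for mitosis, the spindle and the kinetochore, chosen by symbol. A probe with that symbol was on the array for 40 of them (44 probes), out of 15063 genes with a named probe, and Plk1, Smc2, Cks1b and Anln had 2 probes each. Ccnb1, Cdc20, Espl1, Smc4 and Ncaph had no named probe and were not analysed here. The samples were 56 two-colour hybridizations of mouse RNA on printed 65-mer oligonucleotide arrays, made to compare ways of amplifying RNA. In 7 comparisons of 4 arrays each, OV cells, a cell line of mouse ovarian surface epithelium, were hybridized against 3T3 cells, a mouse fibroblast cell line. No treatment of either line is given, and the sources used here do not say that arrays of a comparison come from separate cultures. The targets were cRNA from 3 rounds of T7 in vitro transcription (IVTIII, 10 ng of total RNA), cDNA from SMART template-switching PCR (10 pg and 10 ng), cDNA from SM37, a modified form of SMART (10 ng), cDNA from global PCR after polyadenylation (GA, 10 pg and 10 ng), and unamplified cDNA made by reverse transcription of 100 μg of total RNA. Per the study's methods, PCR targets from inputs above 10 pg were diluted to single-cell amounts in the course of amplification. Their inputs therefore differ in the RNA taken into reverse transcription and not in the later amplification. Further arrays set 2 OV replicas of one method against each other, set an OV target against itself, or compared 2 technical replicas of RNA from 1 small pool of progenitor cells of the mouse neocortex at E11.5.

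Mitosis is driven by the kinase CDK1 bound to A- and B-type cyclins, together with the Polo-like and Aurora kinases. Kinetochores, built on centromeric chromatin that contains the histone variant CENP-A, attach chromosomes to the spindle, and the checkpoint proteins MAD2, BUB1, BUBR1, BUB3 and MPS1 hold back the anaphase-promoting complex until every chromosome is attached. Destruction of securin and cyclin B then releases the chromatids, and the central spindle and a contractile ring divide the cell. Most of these genes are transcribed mainly in G2 and M phase, and their promoters are known for CCAAT boxes, bound by NF-Y, and for the cell cycle genes homology region (CHR), bound by the MuvB complexes with B-MYB and FOXM1. The level in a cell population therefore follows both how many cells are in these phases and how much RNA each one holds. In RNA from whole cultures, fewer cells in G2 and M phase and less RNA per cell cannot be told apart.

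Every value is a log2 ratio of OV over 3T3, so that a negative value means lower in OV. The scale was read as Cy5 over Cy3 and each array was turned by its dye labels, which makes the direction likely but not certain, since the sources used here describe the ratio both ways. Under this reading, Cdkn2a, a gene that NIH 3T3 cells have lost, stood at 1.73, 1.47, 1.53 and 1.60 on the 4 unamplified arrays, and of 11 tested epithelial and mesothelial markers 7 were called higher in OV and 1, Krt18 (mean -0.75), lower. Markers of fibroblasts were mixed, with Prrx1 at -3.33 and Col3a1 at 2.15 in unamplified cDNA. The arrays labelled OV against 3T3 by GA at 10 pg largely failed this check. Over 4002 genes tested in both, their ratios had r = -0.06 with unamplified cDNA. Upk1b, with a mean of 4.26 in unamplified cDNA, was at -0.13, -0.31, -0.41 and -0.28. Prrx1 averaged 1.26 over 3 arrays. Xist, also checked for direction, averaged -0.10 against 3.21 in unamplified cDNA. Cdkn2a went against the label, at -0.08, -0.41 and -0.25 on arrays 2, 3 and 4. Of 7 tested epithelial and mesothelial markers, 4 had a mean below 0, the lowest being Krt7 at -0.69. Krt8 (mean 1.77) and Wt1 (mean 0.82) followed the label and were above 0 on all 4 arrays. None of the 7 was called by limma's log odds, and 1 was higher in OV at an adjusted p under 0.05. The 4 GA arrays at 10 pg correlated with each other at r = 0.455 to 0.846 over probes. SMART array 1 at 10 ng also stood apart, with r of 0.357, 0.450 and -0.0927 to the other arrays of its group, which correlated at 0.541 to 0.702 among themselves. Labels of 2 arrays contradict themselves: IVTIII array 1 names 3T3 in both channels, and GA array 2 at 10 ng is described as a comparison of replicas. Turned by their other labels, they correlated with the rest of their groups at 0.805 to 0.893 and at 0.449 to 0.698. The number of probes with a value ran from 14198 to 18274 on unamplified arrays, from 5667 to 18588 on amplified arrays at 10 ng, from 2303 to 5137 on SMART arrays at 10 pg and from 5965 to 19243 on GA arrays at 10 pg. The reason for a missing value is not given in the sources used here, and no intensities were used, so that a missing gene cannot be read as a silent one.

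CCAAT boxes and CHR elements were searched in the promoter windows of the genes. RefSeq windows from 250 bases before to 50 bases after the transcription start (build GRCm38.p6) were available for 36 of the 45 genes. Searched on both strands, the CCAAT box (CCAAT, or ATTGG on the other strand) was present in 29 of 36 windows (80.6%), against 37.9% of the windows of 27025 genes. At least 2 boxes were found in 19 (52.8%), against 12.2% of all windows. The CHR (TTTGAA or TTCGAA, with TTCAAA on the other strand) was present in 27 (75%), against 19.4%, and both elements in 25 (69.4%), against 7.70%. The CCAAT box was present in 56.2% of 89 windows of other mitotic genes and in 60% of 35 windows of S phase genes, and the CHR in 43.8% and 17.1%. A match describes letters in a window and not a bound site. The 200 bases before the start are printed below, 5′ to 3′ along the gene, for 4 genes whose OV and 3T3 levels are followed through the results and that carry the elements, and for Pttg1, which was called lower in OV most often and has neither in its window. Capitals mark CCAAT boxes and CHR elements on either strand. The windows are chr10:69352913-69353112 on the minus strand for Cdk1, chr9:70421555-70421754 on the minus strand for Ccnb2, chr2:164769729-164769928 on the plus strand for Ube2c, chr11:40733438-40733637 on the minus strand for Hmmr and chr11:43425982-43426181 on the minus strand for Pttg1.
Cdk1: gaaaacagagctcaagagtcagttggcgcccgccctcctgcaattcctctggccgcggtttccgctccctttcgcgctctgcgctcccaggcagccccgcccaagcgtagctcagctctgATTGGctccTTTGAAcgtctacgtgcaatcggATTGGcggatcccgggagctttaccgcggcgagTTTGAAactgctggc
Ccnb2: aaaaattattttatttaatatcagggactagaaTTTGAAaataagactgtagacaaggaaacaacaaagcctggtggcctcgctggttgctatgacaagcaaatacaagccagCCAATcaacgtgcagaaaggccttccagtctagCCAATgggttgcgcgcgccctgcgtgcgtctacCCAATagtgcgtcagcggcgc
Ube2c: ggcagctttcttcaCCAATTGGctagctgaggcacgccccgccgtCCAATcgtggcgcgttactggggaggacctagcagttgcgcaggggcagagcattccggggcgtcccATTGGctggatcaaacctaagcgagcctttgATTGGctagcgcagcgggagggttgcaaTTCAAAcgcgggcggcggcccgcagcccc
Hmmr: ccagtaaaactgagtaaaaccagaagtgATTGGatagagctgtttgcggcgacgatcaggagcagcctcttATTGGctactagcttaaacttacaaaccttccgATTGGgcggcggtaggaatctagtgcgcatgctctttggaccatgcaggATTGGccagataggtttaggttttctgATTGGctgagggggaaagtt
Pttg1: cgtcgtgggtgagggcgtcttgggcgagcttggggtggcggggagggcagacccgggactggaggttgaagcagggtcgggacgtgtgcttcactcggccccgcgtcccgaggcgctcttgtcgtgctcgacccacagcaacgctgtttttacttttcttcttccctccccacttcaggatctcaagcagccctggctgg
In Cdk1, 2 inverted CCAAT boxes begin 80 and 48 bases before the start, with a CHR at 71 and another at 15. The 3 CCAAT boxes of Ccnb2 are spaced 33 and 33 bases apart, with a CHR at 167 in the shown window. Ube2c holds 5 boxes in the 200 bases, of which a direct and an inverted one overlap in the palindrome printed as 1 run of capitals, and an inverted CHR lies 29 bases before the start. Hmmr holds 5 inverted boxes spaced 43, 33, 49 and 27 bases apart, and its CHR begins at base 9 past the start, outside the printed stretch.

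In unamplified cDNA most of the mitotic genes were lower in OV than in 3T3. Of 34 members with a value on all 4 arrays, 18 were called lower and 1 higher in OV by limma's log odds (LOD above 0), where 7.3% of 10185 genes were called lower and 8.81% higher. At an adjusted p under 0.05 (limma, Benjamini-Hochberg over all genes), 30 were lower and 1 higher, against 24.8% and 24% of genes. The median log2 ratio of the 34 was -0.805, against -0.00375 over all genes tested, and 30 of the 34 were below 0 on all 4 arrays, as were 32% of genes. The 4 arrays hold 2 replicates of each line and their dye swaps, per the study's methods, and separate cultures are not stated, so that p-values measure the spread between these hybridizations, which may be technical. In place of 19 called members there were 11 without array 1, 12 without array 4 and 21 without array 2. With a term for the dye there were 24. Shares over all genes are not given here for these alternative fits, so their counts have no background beside them.

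**Figure D1:**
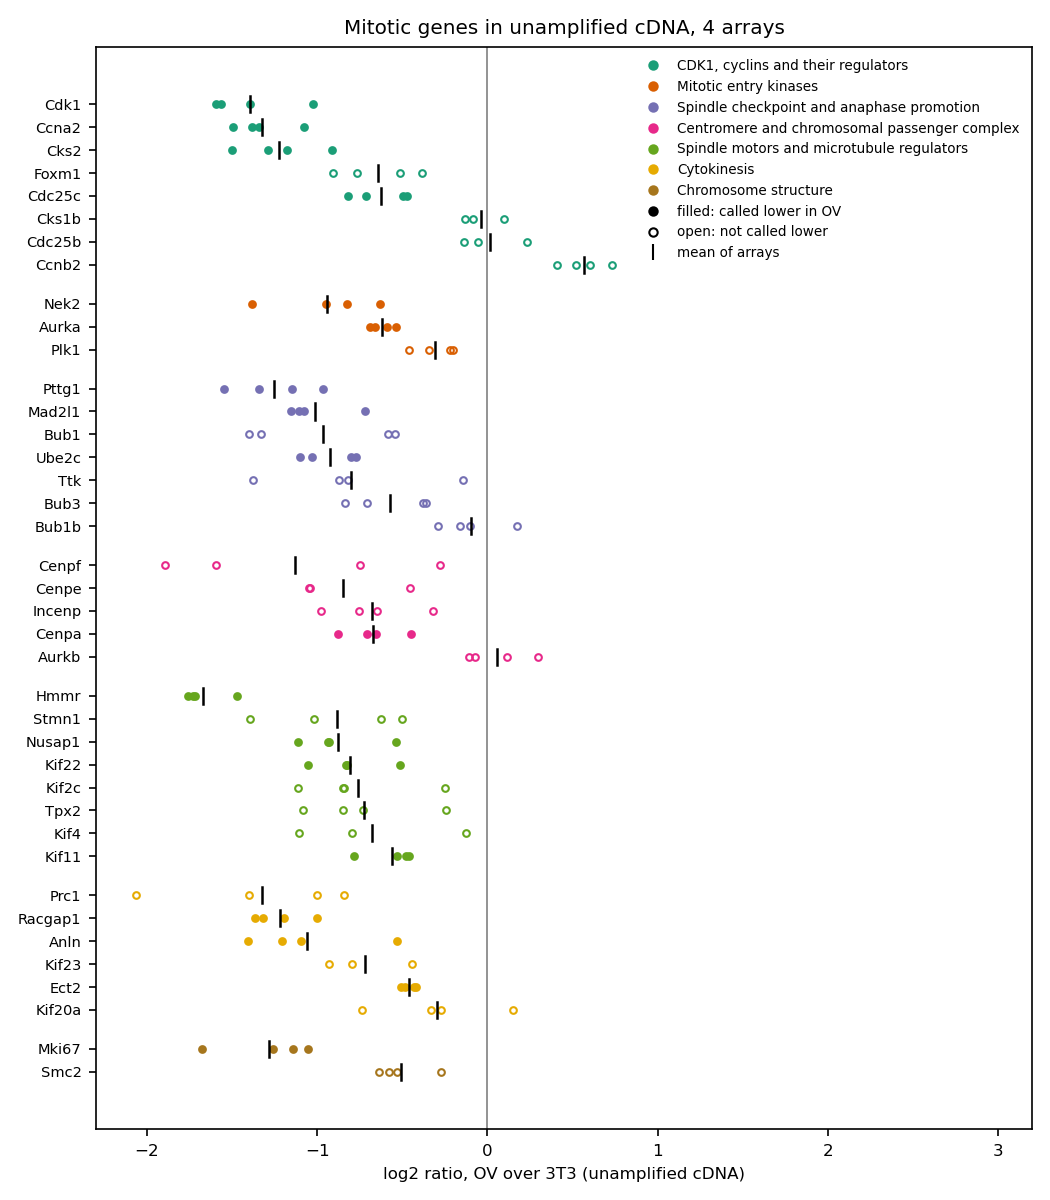
Log2 ratio of OV over 3T3 in unamplified cDNA for every mitotic gene with a value, 1 point for each of up to 4 arrays (filled where the gene was called lower in OV) and a bar for their mean, grouped by role. Most genes lie left of 0 on every array (30 of 34 with 4 values), Hmmr is the lowest at a mean of -1.67, and Ccnb2 is the gene called higher in OV at 0.57.

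CDK1, its cyclins and its regulators gave 4 genes called lower and 1 called higher of 6 tested. Cdk1, the kinase at the centre of mitotic entry, had log2 ratios of -1.57, -1.02, -1.60 and -1.39, which is 2.63-fold lower in OV (-1.39 ± 0.26, SD, n = 4, limma adjusted p = 0.00033). Ccna2, cyclin A2, which acts in S and G2 phase, was at -1.34, -1.08, -1.49 and -1.38 (adjusted p = 0.000185), and Cks2, a small subunit that binds the CDKs, at -1.29, -0.91, -1.50 and -1.18 (adjusted p = 0.000422). All 3 were below -0.9 on every array. The B-type cyclin Ccnb2 went the other way, at 0.52, 0.41, 0.73 and 0.60, and was called higher in OV (0.57 ± 0.14, adjusted p = 0.00157). It was the one member above 0 on all 4 arrays. Cdc25c, a phosphatase that switches CDK1 on, was called lower at -0.71, -0.47, -0.82 and -0.49 (adjusted p = 0.00161). Foxm1, a transcription factor of G2 and M phase genes, had a mean of -0.64 and an adjusted p of 0.00299, and its log odds of -0.224 fell short of the call. Cdc25b and Cks1b had values on 3 arrays only, on both sides of 0.

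Among the mitotic entry kinases, Nek2 and Aurka were called lower and Plk1 was not. Nek2, which separates the centrosomes, was at -0.95, -0.63, -1.38 and -0.82 (adjusted p = 0.0017). Aurka, the kinase of spindle poles, was at -0.69, -0.59, -0.54 and -0.66, with the small SD of 0.07 (adjusted p = 0.000637). Plk1, the Polo-like kinase, was at -0.22, -0.20, -0.34 and -0.46, below 0 on every array but not called (adjusted p = 0.0119). The 2 probes of Plk1 were averaged.

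Of 7 genes of the spindle checkpoint and of anaphase promotion, 3 were called lower, with a group median of -0.928. Pttg1, securin, which inhibits the protease that cuts cohesin, was at -1.34, -1.15, -0.97 and -1.55 (-1.25 ± 0.25, adjusted p = 0.000409). Mad2l1, the checkpoint protein MAD2, was at -1.11, -0.72, -1.08 and -1.16 (adjusted p = 0.000482). Ube2c, the ubiquitin-conjugating enzyme of the anaphase-promoting complex, was at -1.10, -0.77, -1.03 and -0.80 (adjusted p = 0.000452). Bub1, a kinetochore kinase of the checkpoint, was not called at -1.40, -0.58, -1.33 and -0.54 (adjusted p = 0.00496). Its values followed the dye orientation: arrays 1 and 3, with OV in Cy5, were lower than arrays 2 and 4. Among members with every value printed, the same order held for Cdk1, Cks2, Cdc25c, Nek2, Ube2c, Cenpf, Hmmr, Stmn1, Tpx2, Racgap1, Anln, Mki67 and Smc2. It did not hold for Ccna2, Ccnb2, Aurka, Plk1, Pttg1, Mad2l1, Cenpa, Incenp, Aurkb, Nusap1, Prc1 and Kif20a. The share of all genes with this order is not given here. Ttk, the checkpoint kinase MPS1, averaged -0.80 and Bub3 -0.57, neither called. Bub1b, which encodes BUBR1, lay on both sides of 0, with a mean of -0.10 (adjusted p = 0.4).

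At the centromere, Cenpa was called lower and the chromosomal passenger genes were not. Cenpa, the centromeric histone, was at -0.71, -0.65, -0.45 and -0.88 (-0.67 ± 0.18, adjusted p = 0.00137). Cenpf, a kinetochore protein that builds up in G2, was at -1.60, -0.75, -1.89 and -0.28. These 4 values spread over more than those of any other member with 4 values (SD 0.75), again with both OV-in-Cy5 arrays the lowest, and the gene was not called (adjusted p = 0.0139). Incenp, the scaffold of the passenger complex, was at -0.98, -0.32, -0.65 and -0.76 and missed the call (adjusted p = 0.00364). Aurkb, the kinase of that complex, showed no difference beyond its spread (0.30, -0.08, 0.12 and -0.11, adjusted p = 0.602). Birc5, survivin, had no value on any of the 28 arrays of OV against 3T3.

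Spindle motors and microtubule regulators included the lowest member. Hmmr, a hyaluronan receptor that also binds the spindle, was at -1.73, -1.47, -1.76 and -1.72, which is 3.18-fold lower in OV (-1.67 ± 0.13, adjusted p = 7.44e-05). Nusap1, a spindle-associated protein, was called lower at -0.93, -0.54, -1.11 and -0.94 (adjusted p = 0.00109), as were the chromosome-arm kinesin Kif22 (mean -0.81) and the bipolar spindle motor Kif11 (mean -0.56). Stmn1, stathmin, which destabilizes microtubules, was not called at -1.02, -0.50, -1.40 and -0.63 (adjusted p = 0.00434). Kif2c, a kinesin that depolymerizes microtubules, and Tpx2, which activates Aurora A at the spindle, averaged -0.76 and -0.73 without a call. Tpx2 was at -0.85, -0.24, -1.09 and -0.73.

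Genes of cytokinesis had the lowest group median, at -1.06 over 5 tested, with 3 called. Racgap1, a subunit of centralspindlin, was at -1.32, -0.999, -1.36 and -1.19 (-1.22 ± 0.16, adjusted p = 0.000202). Anln, anillin, a scaffold of the contractile ring, was at -1.21, -0.53, -1.41 and -1.09 (adjusted p = 0.00185). Ect2, the exchange factor that activates RhoA at the cell equator, had the smaller ratio of -0.46 with the SD of 0.04, and was called lower (adjusted p = 0.00138). Prc1, which bundles the microtubules of the central spindle, had the lowest mean of the group, -1.33, but its values of -1.40, -1.0, -0.84 and -2.06 were too spread for a call (log odds -0.0146, adjusted p = 0.00266). The kinesin Kif20a, at -0.33, 0.15, -0.27 and -0.74, was not called (adjusted p = 0.12). Among chromosome structure genes, Mki67, which encodes the proliferation marker Ki-67, was at -1.26, -1.05, -1.68 and -1.14 (-1.28 ± 0.28, adjusted p = 0.000467), and Smc2, a condensin subunit, was at -0.64, -0.53, -0.58 and -0.27 and was not called (adjusted p = 0.00303). The 2 probes of Smc2 were averaged, with values on 2 and 4 arrays and means of -0.18 and -0.64.

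Cell cycle genes outside the set were also called lower more often than higher. Of 106 other genes with mitotic roles, 75 were tested in unamplified cDNA. In OV 18 were called lower and 2 higher, with a median of -0.4. The APC inhibitor Fbxo5 was at -1.34, the kinase Pbk at -1.30 and the passenger protein Cdca8 at -1.18, and the 2 called higher were Gtse1 at 1.31 and Anapc1 at 0.99. Of 44 S phase genes, 39 were tested, 9 were called lower and none higher, with a median of -0.427. Prim1, a primase subunit, was at -1.38 and the chromatin assembly factor Chaf1a at -1.17.

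The amplified targets at 10 ng were tested on fewer members, and called fewer of them lower in OV. The members with values on all 4 arrays were 24 of 40 by IVTIII, 28 by SMART, 27 by SM37 and 27 by GA, against 34 in unamplified cDNA. As a share of the genes on the array, these were 60.0% by IVTIII against 26.4% of all genes, and 70.0% by SMART against 49.2%. In SM37 11 were called lower (9.1% of 5779 genes were), in GA 9 (6.14% of 5458), in IVTIII 4 (10.4% of 3972) and in SMART 2 (1.01% of 7405). None was called higher in these 4 targets, where 3.91% of genes were in SM37, 2.09% in GA, 11.6% in IVTIII and 2.53% in SMART. The median ratios were -0.454, -0.547, -0.270 and -0.262, each below the median over all genes, which lay between -0.0316 and 0.0136. By role, genes of the checkpoint and of anaphase promotion had 4 of 6 called in SM37 (median -0.969) and 2 of 6 in GA (median -0.83), and genes of cytokinesis had 2 of 4 called in IVTIII (median -0.58). With the assumed dye-swap pairs averaged, the members called were 4 in SM37, 2 in GA, 1 in IVTIII and 6 in SMART. The shares of all genes called with pairs averaged are not given here, so these counts have no background. The count also depends on the threshold. At an adjusted p under 0.05, limma gave 15 lower and 2 higher in SM37 (25.8% and 17.2% of genes) and 16 and 1 in GA (17.4% and 10.5%). It gave 12 and 0 in IVTIII (26.6% and 29.3%) and 8 and 0 in SMART (2.42% and 4.65%). Among the other mitotic genes, the counts called were 5 lower and 4 higher of 40 in SM37, 7 and 0 of 34 in GA, 3 and 2 of 26 in IVTIII, and 0 and 1 of 49 in SMART.

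**Figure D2:**
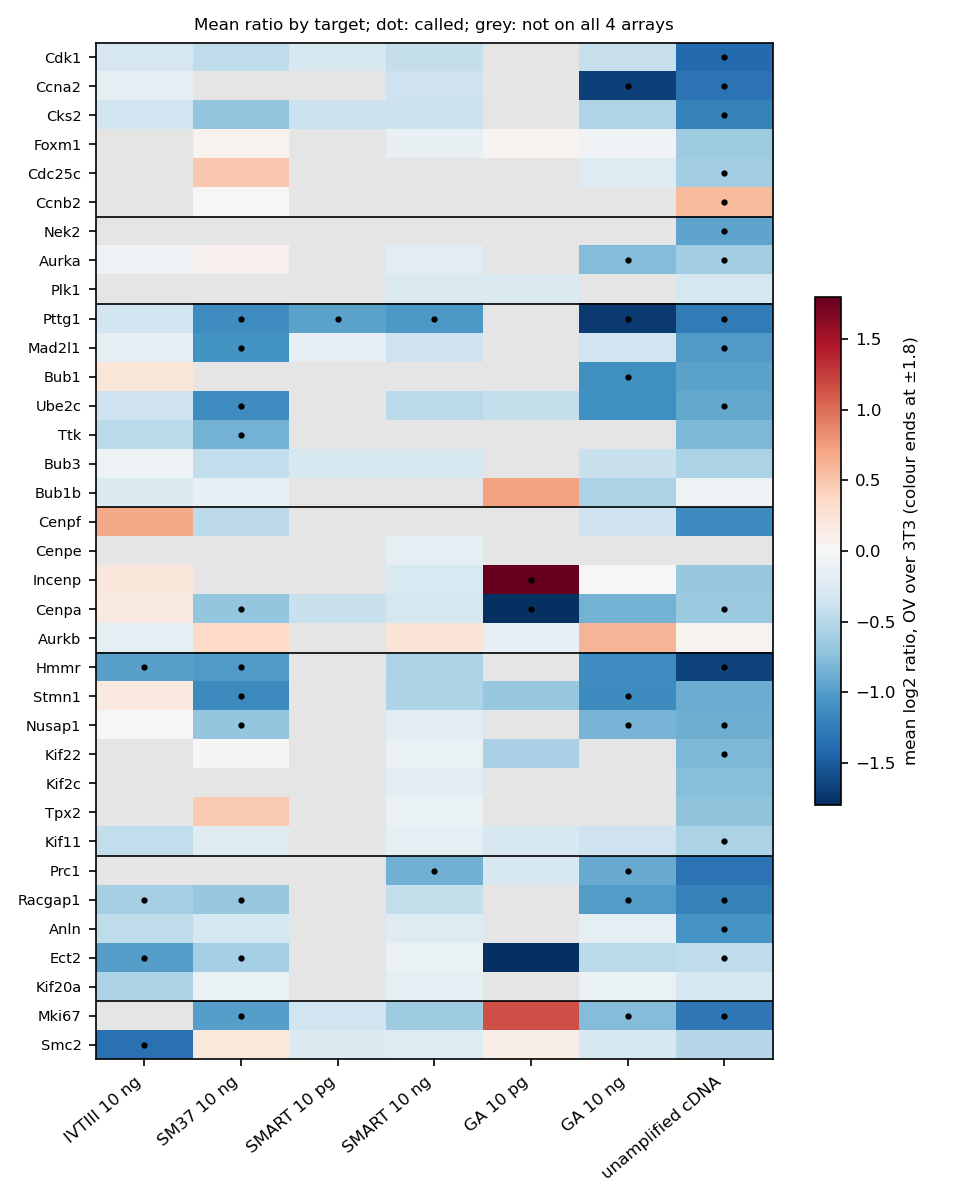
Mean log2 ratio of OV over 3T3 for each mitotic gene (rows, by role) in each target (columns), with a dot where the gene was called and grey where it lacked a value on any of the 4 arrays. The unamplified column on the right is negative for most genes down to -1.67, the SMART columns are paler, and GA at 10 pg holds both the most positive value (Incenp, 2.42) and the most negative (Cenpa, -3.0).

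Securin was the member called lower most often. Pttg1 was called in every target at 10 ng but IVTIII, and at 10 pg by SMART. In GA it was at -1.84, -1.92, -1.42 and -1.73, which is 3.31-fold lower in OV (-1.73 ± 0.22, limma adjusted p = 0.00108). In SM37 it was at -1.71, -1.35, -0.69 and -0.73 (adjusted p = 0.00223), and in SMART at -0.51, -0.99, -1.09 and -1.57 (adjusted p = 0.00703). IVTIII gave -0.43, -0.50, -0.18 and -0.28, below 0 throughout but not called (adjusted p = 0.0131). Racgap1 was called in 4 comparisons: -0.60 in IVTIII, -0.68 in SM37, -0.999 in GA and -1.22 in unamplified cDNA. In all, 23 members were called lower in at least 1 of the 7 comparisons, 13 in at least 2 and 7 in at least 3. Called in none were 15, of which Cdc25b, Cks1b, Birc5, Kif4 and Kif23 never had 4 values. The other 10 were Foxm1, Plk1, Bub1b, Bub3, Cenpe, Cenpf, Aurkb, Kif2c, Tpx2 and Kif20a. Matching shares over all genes are not given here, so these counts across comparisons cannot be set against a background. In single comparisons, 1.01% (SMART at 10 ng) to 10.4% (IVTIII) of genes were called lower. No member was called higher in one comparison and lower in another.

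The genes called are named here by method. IVTIII called Hmmr (-1.34, -1.11, -0.67 and -0.79, adjusted p = 0.000579), Ect2 (-1.04, -0.89, -1.01 and -1.02, adjusted p = 8.47e-05), Racgap1 and Smc2. The condensin gene Smc2 was at -0.72, -0.92, -1.85 and -1.87 there (adjusted p = 0.00141), lower than its mean of -0.51 in unamplified cDNA. Only 1 of its 2 probes had values by IVTIII, and that probe averaged -0.64 in unamplified cDNA. Between IVTIII replicas of OV itself, Smc2 had log2 ratios of 1.19 and 0.66. SM37 called Ube2c (-0.99, -0.99, -1.25 and -1.27, adjusted p = 0.000313), Mad2l1 (-0.77, -0.61, -1.30 and -1.65), Hmmr (-0.75, -0.97, -1.22 and -1.14), Stmn1, Mki67, Ttk, Cenpa, Nusap1, Racgap1, Ect2 and Pttg1. All 11 were below 0 on all 4 arrays. GA called Ccna2 (-2.27, -1.68, -1.61 and -1.15, adjusted p = 0.00221), Bub1 (-1.74, -0.88, -0.76 and -1.01), Stmn1 (-1.21, -0.79, -1.37 and -1.18), Aurka (-0.62, -1.08, -0.67 and -0.76), Mki67 (-0.71, -0.84, -0.69 and -0.87), Nusap1, Racgap1, Prc1 and Pttg1. SMART called Pttg1 and Prc1, with Prc1 at -0.62, -1.12, -0.98 and -0.73 (adjusted p = 0.0048). Without SMART array 1, 5 were called, with Hmmr, Ube2c and Mki67 added at -0.71, -0.64 and -0.73 over the other 3 arrays. The share of all genes called in that fit is not given here. The passenger kinase Aurkb had a positive mean by SM37 (0.36, adjusted p = 0.0396) and by GA (0.61, adjusted p = 0.0405), and its log odds passed in neither.

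The differences between each amplified target and unamplified cDNA were then tested for the same genes. All of these tests share the 4 unamplified arrays, so that they are not independent of each other. Called differences were mostly positive, which for a gene lower in OV means a ratio nearer to 0 after amplification. At an adjusted p under 0.05, IVTIII was higher than unamplified cDNA for 17 members and lower for 2 of 24, where 48.1% of genes differed (25% higher and 23.2% lower). SMART was higher for 16 and lower for 0 of 27 (7.55% and 10.5% of genes). SM37 was higher for 11 and lower for 1 of 27 (14.6% and 23.3%), and GA was higher for 5 and lower for 0 of 27 (7.1% and 14.3%). The median differences of the members were 0.65, 0.46, 0.31 and 0.21, against 0.01, 0.01, -0.06 and -0.04 over all genes. With arrays scaled to a common spread, 7 members differed by SMART and 9 by GA. The SMART count moved with single arrays, to between 8 and 17, and was 13 without SMART array 1, 9 without SMART array 2 and 8 without SMART array 3. It was 8 without unamplified array 1 and 9 without unamplified array 4, and the GA count was 3 without unamplified array 1. For scaled arrays and fits with an array left out, shares over all genes are not given here, so these counts have no background.

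Cdk1 differed in every target where it could be tested. It was at -0.14, -0.01, -0.47 and -0.58 by IVTIII, a difference of 1.09 from unamplified cDNA (limma adjusted p = 0.00045). SMART gave -0.17, -0.33, -0.49 and -0.74 (difference 0.96, SE 0.16, adjusted p = 0.00199) and SM37 gave -0.50, -0.55, -0.10 and -0.66 (difference 0.94, SE 0.16, adjusted p = 0.00124). With GA the values were -0.25, -0.17, -0.64 and -0.59 (difference 0.98, SE 0.17, adjusted p = 0.00398). Every one of these 16 values lay above the 4 unamplified ones. Pttg1 was the contrast: its difference was 0.13 (95% interval -0.36 to 0.63) in SM37, 0.21 (-0.23 to 0.66) in SMART and -0.47 (-0.83 to -0.11, adjusted p = 0.0631) in GA, none of them called, and 0.90 in IVTIII (adjusted p = 0.000507), which was.

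Other members with large called differences are given by method. In IVTIII, Cenpf was at 1.33, 1.33, -0.00 and 0.07, a difference of 1.81 (SE 0.41, adjusted p = 0.00416). Bub1, at 0.21, 0.40, -0.10 and 0.38, differed by 1.19 (adjusted p = 0.00118), and Ccna2, at -0.43, 0.38, -0.66 and -0.02, by 1.14 (adjusted p = 0.00113). The 2 members lower by IVTIII were Ect2 (-0.53, adjusted p = 0.000974) and Smc2 (-0.83, adjusted p = 0.0189). For Smc2 this sets 1 probe by IVTIII against the average of 2 in unamplified cDNA. In SMART, Hmmr was at -0.14, -0.69, -0.62 and -0.82 and Ccna2 at -0.29, -0.49, -0.46 and -0.22. Their differences were 1.11 (adjusted p = 0.000645) and 0.95 (adjusted p = 0.00042), with no overlap between the SMART and the unamplified values. In SM37, Tpx2 was at -0.41, 0.15, 1.00 and 1.11 (difference 1.19, adjusted p = 0.0118) and Cdc25c at 0.07, 0.27, 1.05 and 0.53 (difference 1.10, adjusted p = 0.00135). Ccnb2, higher in OV in unamplified cDNA, was at 0.02, -0.10, 0.02 and 0.05 by SM37 and was the member that differed downward (-0.57, adjusted p = 0.00213). In GA, Anln was at -0.18, -0.08, 0.04 and -0.42 (difference 0.90, adjusted p = 0.0106) and Mad2l1 at -0.35, -0.36, -0.46 and -0.27 (difference 0.66, adjusted p = 0.00744).

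Set against their own ratios in unamplified cDNA, the members at 10 ng had the highest r by SMART. Across the 27 members tested in both, SMART ratios had r = 0.74 and a slope through 0 of 0.40 (0.76 and 0.34 over all genes). Of the 27, 26 were closer to 0 than in unamplified cDNA, as were 74.8% of all genes. That share is not a like background. The median distance from 0 in unamplified cDNA was 0.806 for these members and 0.234 over all genes. Without SMART array 1 the members' slope was 0.48 and their r 0.74. GA had r = 0.61 and a slope of 0.73 (0.61 and 0.51 over all genes), with 17 of 27 closer to 0 (48.5% of genes). SM37 had r = 0.59 and a slope of 0.57 (0.48 and 0.37 over all genes), with 19 of 27 closer to 0 (47.4% of genes). IVTIII had r = -0.01 over 24 members, against 0.50 over all genes tested in both. Its slope was 0.27 (0.56 over all genes), with 19 of 24 members closer to 0 (43.0% of genes). These correlations are across genes, which are not independent replicates, and each target was labelled for the same 2 cell lines. At 10 pg, SMART had r = 0.32 over 8 members (0.80 over all genes) and GA r = -0.07 over 14 (-0.06 over all genes).

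**Figure D3:**
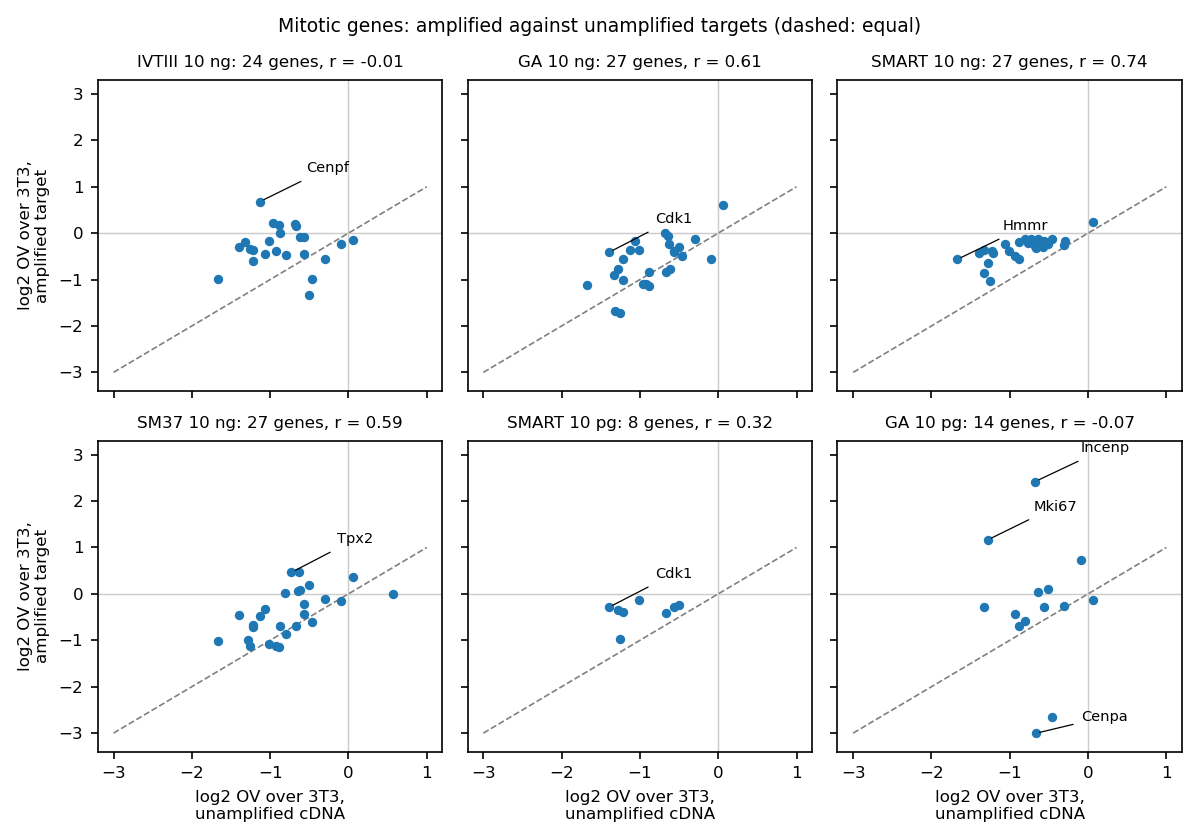
Mean log2 ratio of OV over 3T3 in each amplified target at 10 ng and 10 pg (vertical axes) against the mean in unamplified cDNA (horizontal axes), 1 point for each mitotic gene tested in both, with a dashed line of equal values. SMART points at 10 ng lie along a line shallower than the dashed one (slope through 0 of 0.40), IVTIII points are scattered (r = -0.01 over 24 genes), and the labelled genes lie far from the line of equal values.

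Arrays 1 and 2 and arrays 3 and 4 were taken as dye-swap pairs from their numbering and opposite dyes. In unamplified cDNA both values of one pair lay above both of the other in 6 of 34 members, against 34.0% of genes. In amplified targets this held for 12 of 24 members by IVTIII (44.7% of genes), 12 of 28 by SMART (36.2%), 11 of 27 by SM37 (48.8%) and 14 of 27 by GA (56.0%). The median difference of a member between the pairs was 0.195 by IVTIII, 0.194 by SMART, 0.151 by SM37, 0.325 by GA and 0.172 in unamplified cDNA, against 0.147, 0.258, 0.257, 0.267 and 0.324 within a pair. The first compares means of 2 arrays and the second single arrays. With no effect of the pair the first would be the smaller, so the 2 are not like measures. Over all genes in unamplified cDNA, the median within a pair, where the dyes are opposite, was 0.178. Cenpf by IVTIII had a pair difference of 1.30, and Hmmr by GA, at -1.91 and -1.81 against -0.49 and -0.25, has one of -1.49. Incenp by GA was at -0.50, -0.65, 0.36 and 0.82, so that its mean of 0.01 stood between 2 pairs of opposite sign. Whether the pairs come from separate amplifications was not tested.

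**Figure D4:**
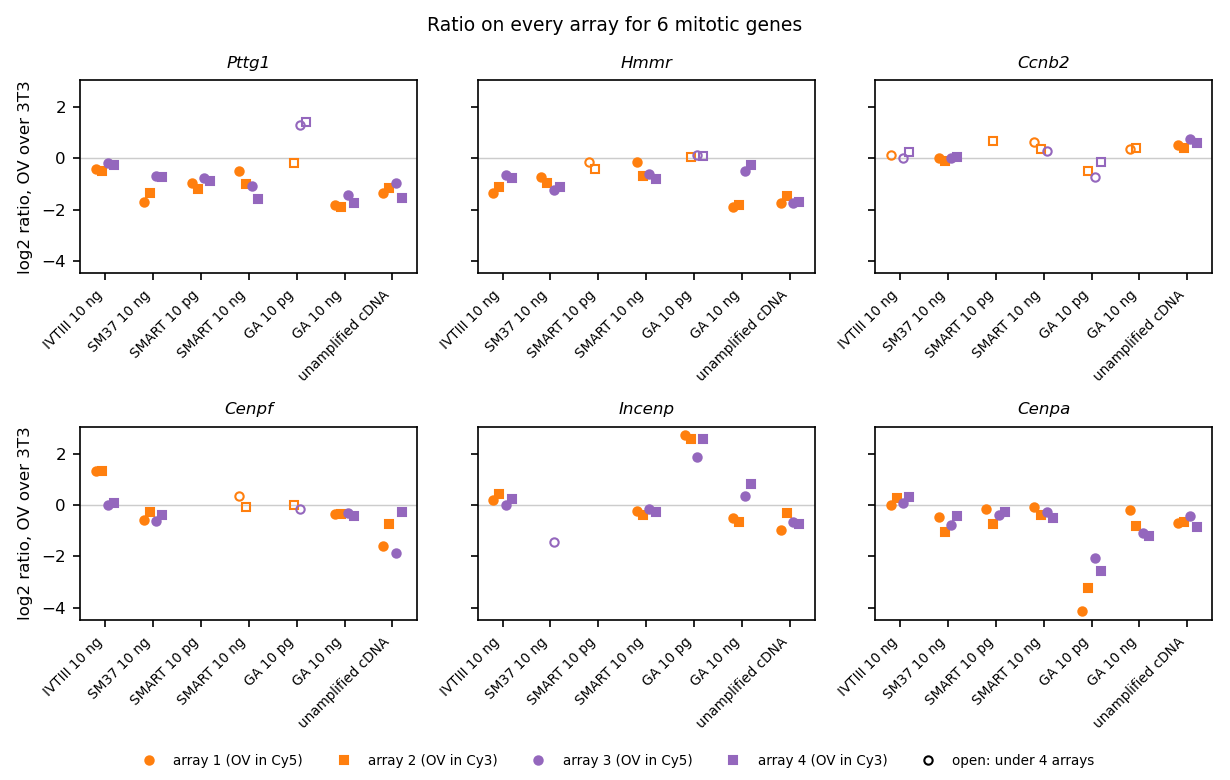
Log2 ratio of OV over 3T3 on each of the 4 arrays for 6 mitotic genes, by target, with circles for arrays with OV in Cy5, squares for OV in Cy3, colours for the assumed pairs and open marks where fewer than 4 arrays had a value. Pttg1 stays below 0 on all arrays at 10 ng, Ccnb2 is above 0 in unamplified cDNA, Cenpf splits into 2 levels by IVTIII (1.33 and 1.33 against -0.00 and 0.07), and Incenp and Cenpa move far from 0 by GA at 10 pg.

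At 10 pg, about the RNA of a single cell, SMART and GA each gave 4 arrays labelled OV against 3T3. SMART gave all 4 values for 8 of 40 members (20.0%, against 7.69% of genes). All 8 were below 0 on all 4 arrays, as were 24% of genes, and 6 had an adjusted p under 0.05 (limma), all lower, where 14.9% of genes were lower and 18.4% higher. Pttg1 was the one called by log odds, at -0.98, -1.21, -0.79 and -0.89 (-0.97 ± 0.18, adjusted p = 0.00011), where 2.93% of 1159 genes were called lower and 6.04% higher. Cdk1 was at -0.29, -0.47, -0.28 and -0.11, Mki67 at -0.21, -0.95, -0.02 and -0.24, and Mad2l1 at -0.28, -0.07, -0.14 and -0.07. Compared with unamplified cDNA they differed by 1.11, 0.93 and 0.87 (adjusted p = 0.000149, 0.00467 and 0.000191), as did Cks2 by 0.84, which makes 4 of 8 higher and none lower (19.9% and 14.8% of genes). Against SMART at 10 ng, none of the 8 differed at an adjusted p under 0.05 (limma, 0.0932% of 1073 genes did), nor at an unadjusted p under 0.05, which 8.2% of genes passed. Differences ran from -0.08 to 0.29. The intervals leave room for moderate ones, for example 0.15 (-0.16 to 0.45) for Cdk1, 0.07 (-0.34 to 0.49) for Pttg1 and 0.29 (-0.16 to 0.74) for Mki67.

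GA at 10 pg gave 4 values for 14 members, and the largest ratios of either sign. These arrays largely failed the check with cell line markers, so their ratios are OV over 3T3 by label only. Array 1 of this group held only 5965 probes with a value and 15 of the members. Incenp was at 2.71, 2.56, 1.85 and 2.56 (2.42 ± 0.38, limma adjusted p = 0.00341, called higher as were 2.73% of 4426 genes). Cenpa was at -4.15, -3.24, -2.06 and -2.58 (-3.0 ± 0.90, adjusted p = 0.00734, called lower as were 2.71%). At an adjusted p under 0.05, 3 members were lower and 1 higher (9.13% and 7.95% of genes). The log odds calls of Incenp and Cenpa were both lost when the arrays were scaled to a common spread (adjusted p = 0.031 and 0.0434). Ect2 was at -3.19, -0.66, -2.71 and -4.08 without a call (adjusted p = 0.0278). Mki67 was split by pair, at 0.12, -0.01, 2.55 and 1.98. Some genes with 3 values were far above 0 on arrays 3 and 4, and high examples are given. The checkpoint gene Bub3 was at 0.82, 1.99 and 2.70 on arrays 2 to 4 and Cks2 at 0.50, 1.93 and 1.98. Racgap1 was at 0.01, 1.74 and 1.70, and Pttg1 at -0.18, 1.29 and 1.40. The median of the members with a value was only 0.31 on array 3 and 0.56 on array 4. Medians over all genes on these single arrays are not given here. Pttg1 was below 0 on every array of unamplified cDNA, of the targets at 10 ng and of SMART at 10 pg. Compared with GA at 10 ng, 5 of 12 members differed (28.7% of genes did): Incenp by 2.41, Mki67 by 1.94 and Bub1b by 1.29, and Cenpa by -2.16 and Ect2 by -2.17 (limma adjusted p between 0.00153 and 0.026). That count was 12 of 24 without GA array 1 at 10 pg, 3 without its array 3 or 4, 2 without GA array 1 or 4 at 10 ng and 3 without GA array 3 at 10 ng. Compared with unamplified cDNA, 6 were higher and 2 lower of 14 (15.7% and 20.2% of genes), led by Incenp at 3.10 (adjusted p = 4.56e-05), Mki67 at 2.45 (adjusted p = 0.00915) and Cenpa at -2.33 (adjusted p = 0.00238). With array 1 left out, 30 members could be tested against unamplified cDNA and 22 differed, 19 of them higher. Without unamplified array 1, 2, 3 or 4 the count was between 3 and 5. Shares over all genes are not given here for fits with an array left out, so the counts of those fits have no background beside them.

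Replica arrays, on which both channels held OV RNA taken through the same method, showed how far these genes moved with no difference between cells, as the log2 ratio of replica 1 over replica 2. The SD of the members' log2 ratio was 0.101 in unamplified cDNA (1 array, 39 members, 0.123 over all genes). Averaged over 2 dye-swapped arrays at 10 ng it was 0.168 by SMART (28 members), 0.278 by GA (25), 0.358 by IVTIII (26) and 0.212 by SM37, the last over 3 members only. The OV over 3T3 ratios of the members had SDs of 0.251, 0.516, 0.439 and 0.512 in these targets and 0.453 in unamplified cDNA. The replica SD was below that of the cell comparison in each of these 5 targets, although the number of arrays averaged differs between the kinds. At 10 pg it was above that of the cell comparison by SMART (0.353 over 20 members against 0.250 over 8) and below it by GA (0.763 over 35 against 1.36 over 14). An SD over members leaves out a shift that they share, such as the median of -0.323 in the SMART cell comparison at 10 pg. The members covered also differ between the kinds, so these SDs do not set noise against the size of a cell difference. By the RNA taken into reverse transcription, SMART replicas had SDs of 0.353 at 10 pg, 0.173 at 100 pg, 0.063 at 1 ng and 0.168 at 10 ng. The arrays titled 1 ng are described as 100 pg in their own labels, and each alone had an SD of 0.155 to 0.161. GA replicas had 0.763 at 10 pg, 0.583 at 100 pg, 0.199 at 1 ng and 0.278 at 10 ng. At 10 pg by GA, 7 of 35 members were over 2-fold apart between replicas, against 11.05% of genes, and at 100 pg 2 of 26 (2.323%).

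**Figure D5:**
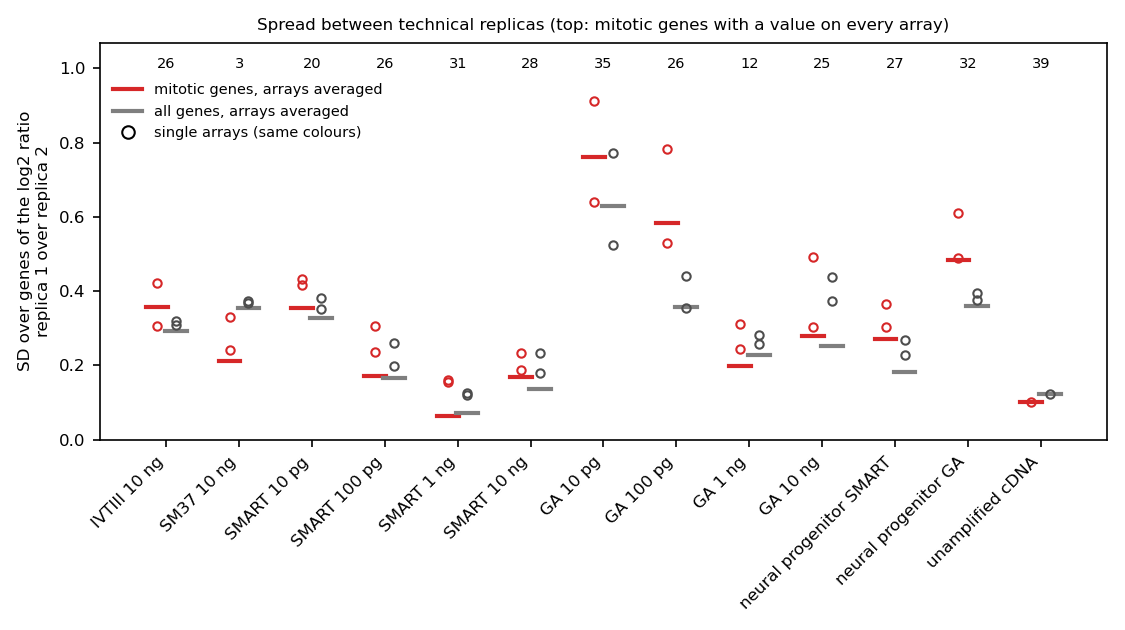
Spread of log2 ratios over the mitotic genes (SD) between 2 replicas of OV RNA or of neural progenitor RNA, by method and input, as bars for averaged arrays and circles for single arrays, with the spread over all genes in grey. GA at 10 pg and 100 pg is the widest (0.763 and 0.583 for the mitotic genes), and unamplified cDNA (0.101) and SMART at 1 ng (0.063) are the narrowest.

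Cenpf and Incenp, which stood out in the cell comparisons, also did so between replicas. Cenpf, at 1.33 on 2 of its IVTIII arrays of OV over 3T3, had log2 ratios of 1.32 and 1.08 between the IVTIII replicas of OV itself, the largest of the 26 members there. Incenp was the largest member between GA replicas at 3 inputs: -2.09 and -1.91 at 10 pg, 0.73 and 0.12 at 1 ng, and -0.27 and -1.10 at 10 ng, and at 100 pg it averaged -1.18. The replica ratio of Incenp by GA at 10 pg, -2.0 on average, was thus nearly as far from 0 as its ratio of OV over 3T3, 2.42. Stmn1 was at -1.27 and -2.94 between GA replicas at 100 pg, and at 1.42 and 0.46 between SMART replicas at 10 pg. The largest members by SMART at higher inputs were smaller, with Mad2l1 at 0.60 and 0.27 for 100 pg, Kif4 at 0.31 and 0.02 for 1 ng and Ccnb2 at -0.54 and -0.10 for 10 ng. Smc2, one of 3 with both values by SM37, was at -0.31 and -0.39, and Kif2c was at -0.27 on the unamplified array. An OV target hybridized against itself gave SDs of 0.146 by GA (37 members), 0.131 by IVTIII (4) and 0.124 in unamplified cDNA (37). The largest there were Aurkb at -0.47, Anln at -0.33 and Birc5 at 0.25.

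The RNA of 1 small pool of neural progenitor cells was divided into aliquots, and 2 replicas were set against each other by GA and 2 by SMART. In each method 7 of 8 neural markers had values on both arrays. So did 5 of 11 epithelial and mesothelial markers by GA and 7 of 11 by SMART, so having a value does not mark the cell type. The members had values on both arrays in 32 of 40 cases by GA and in 27 by SMART. The SD between replicas was 0.484 by GA and 0.271 by SMART, against 0.359 and 0.182 over all genes. Ccna2 was furthest apart by GA, at -1.29 and -1.02, and was the one member over 2-fold (0.8556% of genes were). Ube2c was furthest apart by SMART, at -0.78 and -0.52.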

How the data were processed

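The authors hybridized Cy3- and Cy5-labelled targets to printed oligonucleotide arrays, read the spots with GenePix, took ratios after background subtraction, applied lowess per print tip with limma, and deposited 1 log2 ratio per probe. Of 21997 probes, 231 controls were left out; 16632 had 1 gene symbol in the platform annotation, 139 had several and 4995 none. Ratios were turned to OV over 3T3 by the dye labels, probes of a gene were averaged, and genes with a value on all 4 arrays were fitted in limma 3.58.1 (R 4.3.3; lmFit and eBayes, prior proportion 0.01), with a gene called at log odds above 0 and Benjamini-Hochberg adjusted p-values beside it. Differences between targets were fitted over 8 arrays and called at an adjusted p under 0.05. The fits were tested on simulated data. Separate cultures are not stated for the arrays of a comparison, and replicate numbers did not pair samples across targets. Tables and plots used Python 3.11.15, pandas 2.3.3 and matplotlib 3.10.9.

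The members, the role groups and the lists of other genes were chosen with earlier results of these data known. Values on every array were given for the 3 members with the largest mean in unamplified cDNA in each of 7 role groups, those called higher in OV, the 3 with the largest called difference per amplified target, the largest member between replicas, and any with opposite calls. Where labels disagreed, the title and channel names were followed, except for IVTIII array 1, where the description was. Some labels give inputs in other units than the design does, and the inputs of the design were used. Alternatives were other thresholds, filters, scalings and probe rules, dye and pair terms, a replicate block and leaving out each array. SMART array 1 was left out of the slope after the data were seen. Intensities and spot flags were not used here, and the number of arrays limits the precision.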

Additional observations from a re-analysis of the deposited data

Results flagged for a closer look

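Within groups of 4 arrays, 162 sets of member values were checked for 1 array far from the other 3, and 5 were found, fewer than the 1 in 20 that chance gives. In unamplified cDNA, Hmmr on array 2 (-1.47) was separated from the other arrays by a gap of 0.870 of the whole range. Kif20a by SM37 on array 3 (-0.36) had a gap of 0.867 and Anln by SM37 on array 4 (0.18) one of 0.850. By GA at 10 pg, Incenp on array 3 (1.85) had a gap of 0.831 and Stmn1 on array 3 (-0.97) one of 0.963.

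The ratio of OV over 3T3 differed from unamplified cDNA by a test of the difference itself (limma, adjusted p under 0.05, on shared unamplified arrays) for 19 members by IVTIII, 16 by SMART, 12 by SM37 and 5 by GA at 10 ng, and for 4 by SMART and 8 by GA at 10 pg. Between GA at 10 pg and GA at 10 ng, 5 members differed. The largest by IVTIII were Cenpf (1.81), Bub1 (1.19) and Ccna2 (1.14). For SMART they were Hmmr (1.11), Cdk1 (0.96) and Ccna2 (0.95), and for SM37 Tpx2 (1.19), Cdc25c (1.10) and Cdk1 (0.94). By GA they were Cdk1 (0.98), Anln (0.90) and Mad2l1 (0.66). At 10 pg they were Cdk1 (1.11), Mki67 (0.93) and Mad2l1 (0.87) by SMART, and Incenp (3.10), Mki67 (2.45) and Cenpa (-2.33) by GA.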

How the results depend on the processing

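Over 162 single member ratios, no alternative turned the direction of a called one, and those that changed most calls were the adjusted p (47 gained), averaging the assumed dye-swap pairs (20 lost, 10 gained) and the dye term (10 lost, 8 gained). Of 648 fits that left out 1 array, 565 kept the call, 68 lost it and 15 gained it. At an adjusted p under 0.05 the called members were 31 in unamplified cDNA, 12 by IVTIII, 17 by GA, 8 by SMART, 17 by SM37, 6 by SMART at 10 pg and 4 by GA at 10 pg. With a dye term they were 24 in unamplified cDNA, 2 by IVTIII, 5 by SMART and 6 by SM37. With pairs averaged they were 1 by IVTIII, 2 by GA, 6 by SMART and 4 by SM37. Arrays scaled to a common spread gave 2 by IVTIII and 0 by GA at 10 pg, and 9 members differing from unamplified cDNA by GA and 7 by SMART. With values on at least 2 arrays of each group, 8 differed by GA, 10 by SMART at 10 pg, 24 by GA at 10 pg, and 13 between GA at 10 pg and 10 ng, as more genes were tested. Leaving out single arrays gave 11 to 21 called in unamplified cDNA, 1 to 3 by IVTIII (1 without array 2, 2 without array 3 or 4), 5 to 7 by GA (5 without array 2 or 3), 2 to 5 by SMART (5 without array 1), 6 to 8 by SM37 (6 without array 3 or 4, 7 without array 2) and 1 to 2 by GA at 10 pg (1 without array 4). For differences from unamplified cDNA it gave 17 to 19 by IVTIII, 3 to 7 by GA, 8 to 17 by SMART, 11 to 14 by SM37, 4 to 6 by SMART at 10 pg and 3 to 22 by GA at 10 pg (22 without its array 1). Between GA at 10 pg and 10 ng it gave 2 to 12 (12 without GA array 1 at 10 pg, 2 without GA array 1 or 4 at 10 ng, 3 without array 3 of either or array 4 at 10 pg). A replicate block gave 19 by IVTIII, 4 by GA, 11 by SMART, 14 by SM37, 4 by SMART at 10 pg and 7 by GA at 10 pg, 0 between the SMART inputs and 4 between the GA inputs. Same-numbered arrays correlated at -0.228 to 0.246, and at most 2 of 4 correlated best with their own number, so the numbers do not pair them. Measured by the median absolute deviation, the spread between replicas was 0.131 by GA at 1 ng, 0.262 by GA at 100 pg, 0.268 by IVTIII, 0.0264 by SM37, 0.0701 by SMART at 1 ng, 0.262 by SMART at 10 pg, and 0.212 between neural progenitor replicas by SMART. On single arrays the SD was 0.245 to 0.313 by GA at 1 ng, 0.304 to 0.491 at 10 ng, 0.639 to 0.914 at 10 pg and 0.530 to 0.784 at 100 pg, 0.306 to 0.421 by IVTIII, 0.242 to 0.330 by SM37, 0.155 to 0.161 by SMART at 1 ng, 0.187 to 0.234 at 10 ng, 0.417 to 0.433 at 10 pg and 0.237 to 0.305 at 100 pg, and 0.490 to 0.611 and 0.304 to 0.364 between neural progenitor replicas by GA and SMART. Apart from the main fits and the adjusted p, shares over all genes are not given here for these settings. Whether a member count or the rate over all genes moved can therefore not be told from these counts. The cause of the changes listed here was not tested. Where 2 probes of a gene had values they could disagree, with Plk1 by SMART at -0.47 and 0.19 and Anln by GA at 0.41 and -0.37.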
